A study of Rattus norvegicus with 9 samples.

Results

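The metallothioneins Mt2A and Mt1, their regulator Mtf1 and the zinc carriers Slc30a1, Slc39a14 and Slc39a8 were followed in hepatic macrophages of rats with a narrowed portal vein. The 6 genes were named with earlier results of these arrays known, the fall of Mt2A at 10 days among them, and each gene's probeset was chosen by its mean log2 signal over the 9 arrays, the brightest being kept. Mt2A and Mt1 each had 2 probesets and the others 1. They are 6 of 18166 genes that the platform annotation gives a symbol of their own, and all 6 passed the filter on dim genes (a mean log2 signal of at least 4.16), which left 14014 genes tested.

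The animals were male Sprague-Dawley rats, in 3 groups of 3 arrays, each array counted as 1 rat. In the groups with partial portal vein ligation (PPVL), a thread tied over a needle that was then withdrawn left a stenosis of fixed calibre, a model of portal hypertension, and macrophages were taken after 3 or 10 days. Sham rats had the same operation without the ligature, and the day on which their cells were taken is not given, so days since surgery and ligation cannot be told apart. Neither the age of the rats nor the way the macrophages were isolated is given in the sources used here. RNA of each sample was labelled with biotin and read on a 1-colour Affymetrix array.

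Metallothioneins are small cysteine-rich proteins that bind zinc and copper. Free zinc switches on the transcription factor MTF-1, encoded by Mtf1, which binds metal response elements before the metallothionein genes and before Slc30a1, whose product ZnT1 exports zinc from the cell. Glucocorticoids and inflammatory cytokines also raise metallothioneins, and in liver and macrophages the importers ZIP14 (Slc39a14) and ZIP8 (Slc39a8) are known to carry zinc in during inflammation.

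The promoters of the metallothioneins and of Slc30a1 are shown because the metal response element is the link between these genes and Mtf1. They run from 250 bases before to 50 bases after the transcript start (RefSeq, GRCr8), 5′ to 3′ on the strand of the gene. Capitals mark matches to the core of the element, searched as TGCACNC and TGCGCNC on both strands. The Mt2A promoter lies at chr19:10838659-10838958 and that of Mt1 at chr19:10832926-10833225, both on the minus strand, and the Slc30a1 promoter lies at chr13:106021769-106022068 on the plus strand.
Mt2A: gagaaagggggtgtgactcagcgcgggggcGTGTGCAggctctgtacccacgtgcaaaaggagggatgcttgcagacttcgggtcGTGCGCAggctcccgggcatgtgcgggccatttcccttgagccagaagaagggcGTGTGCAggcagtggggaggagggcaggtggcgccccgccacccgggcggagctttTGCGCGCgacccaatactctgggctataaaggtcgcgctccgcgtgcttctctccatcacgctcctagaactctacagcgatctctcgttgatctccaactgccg
Mt1: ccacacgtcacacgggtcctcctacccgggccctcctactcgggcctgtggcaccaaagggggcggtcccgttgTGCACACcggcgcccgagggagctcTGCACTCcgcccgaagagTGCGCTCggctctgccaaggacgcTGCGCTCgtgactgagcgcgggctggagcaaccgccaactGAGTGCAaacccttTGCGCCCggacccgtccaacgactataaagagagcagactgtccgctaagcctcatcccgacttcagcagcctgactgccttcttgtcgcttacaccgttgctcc
Slc30a1: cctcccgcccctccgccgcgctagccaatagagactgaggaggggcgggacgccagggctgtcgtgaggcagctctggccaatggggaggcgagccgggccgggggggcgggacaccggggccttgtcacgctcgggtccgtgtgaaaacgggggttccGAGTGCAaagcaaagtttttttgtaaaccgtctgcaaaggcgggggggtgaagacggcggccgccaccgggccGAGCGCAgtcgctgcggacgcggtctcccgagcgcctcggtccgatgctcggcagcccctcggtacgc

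The Mt1 promoter held 6 matches, 5 of them on the strand of the gene, from position -176 to -49 relative to the start. Mt2A had 4 matches, 3 of them on the opposite strand, and Slc30a1 had 2, both on the opposite strand. No match in these promoters overlapped another. Of 33469 rat promoters of the same length, 24.2% held at least 1 match, 6.36% at least 2, 0.439% at least 4 and 0.0388% at least 6. Mtf1 itself had 2 matches and Slc39a8 none. Promoter sequences were matched for 5 of the 6 genes, the other being Slc39a14. A match is a run of letters and was not tested for binding.

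**Figure D1:**
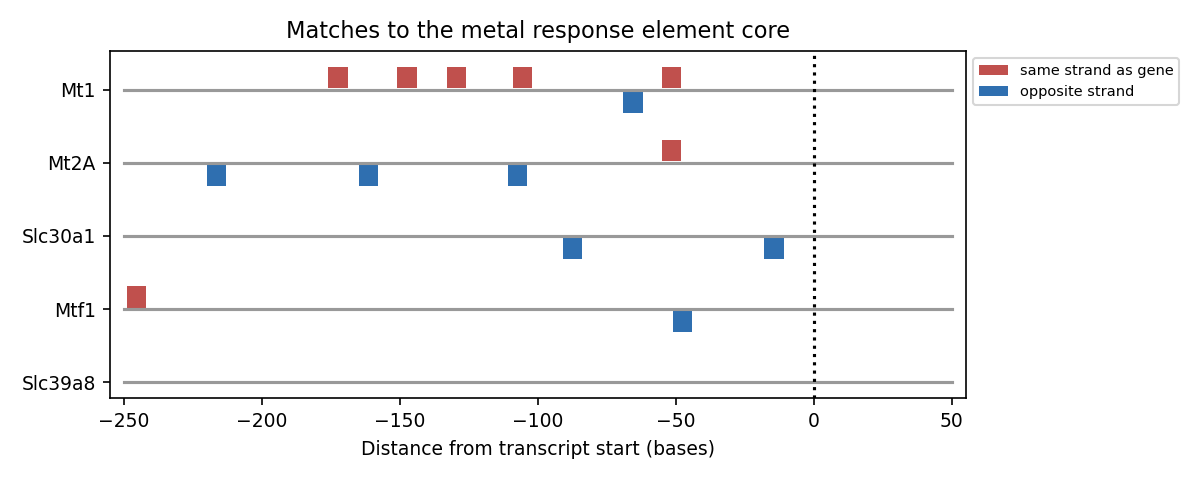
Positions of matches to the metal response element core in the promoters of 5 genes, as distance from the transcript start in bases. Bars above a line lie on the strand of the gene and bars below it on the opposite strand, and Mt1 has 6, Mt2A 4, Slc30a1 2, Mtf1 2 and Slc39a8 none.

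The arrays were alike in overall signal, with medians of 5.21 to 5.26 (log2) and correlations between any pair of arrays of 0.987 to 0.993. Signals of different probesets are not comparable, so levels are compared only within a gene. Of the 12 macrophage markers, Cd14, Cd68, Csf1r and Adgre1 had mean signals of 11.44, 11.17, 10.25 and 8.55. C1qa, C1qb and C1qc read 6.14, 6.19 and 6.21, and Mertk 4.77. The resident Kupffer cell markers Marco, Clec4f, Cd163 and Vsig4 read 5.27, 5.03, 4.50 and 4.26, with Vsig4 the nearest to the filter at 4.16. These signals are set beside the filter only and do not rank the genes. All 10 T cell and all 9 natural killer cell markers found were above the filter, with array means of 9.26 to 9.78 and 9.66 to 10.24. So were all 8 B cell markers found, 9 of 10 neutrophil markers and 8 of 9 hepatocyte markers. Passing this filter thus does not tell cell types apart. The preparations may hold cells other than macrophages, and their share was not measured. In such bulk RNA, fewer cells of a type and less RNA per cell cannot be told apart. Differences below are log2 differences ± SE (n = 3 rats per group) from limma, with p adjusted by the Benjamini-Hochberg method over the 14014 genes and a threshold of 0.05. By its label each array has a group and a number of its own, and it was counted as 1 rat, which the label does not state. An exact permutation test of one gene between groups of this size has p = 0.1 as its lowest value.

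Mt2A was the one member that passed the test, with a lower signal at 10 days after PPVL than in sham rats. Its log2 signals were 10.98, 11.41 and 10.94 in sham rats 1 to 3. At 3 days they were 10.86, 10.31 and 10.62, and at 10 days 10.39, 10.20 and 10.16. Every sham rat lay above every ligated rat, the 10-day group was the tightest, and the lowest 3-day rat lay inside the range of the 10-day group. Means were 11.11 ± 0.26 in sham, 10.60 ± 0.27 at 3 days and 10.25 ± 0.12 at 10 days (SD, n = 3).

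At 10 days Mt2A fell by 0.86 ± 0.15, or 1.81-fold, with a 95% interval from -1.21 to -0.51 (adjusted p = 0.0485, lower in 3 of 3 rats). This fall was known when the gene was named, and it stands just inside the threshold. It was no longer called in 7 of the 9 fits that left out 1 array (differences from -0.94 to -0.71, adjusted p up to 0.150). Among them were all fits that dropped an array of the sham or the 10-day group, and the remaining one dropped the third rat of the 3-day group. The call also ended with no filter on dim genes (adjusted p = 0.0626) and with only the sham and 10-day arrays in the fit (0.0535). The same held with the rats' numbers as a replicate block (0.0897) and with a hepatocyte marker score as a covariate (0.102). In these 4 fits the difference was -0.84 to -0.86. The call was kept with the filter at the 50th percentile (0.0350), an intensity trend and robust moderation (0.0371) and array weights (0.0384). Quantile normalization (0.0409) and the mean of probesets (0.0436) kept it as well.

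At 3 days the difference of Mt2A from sham was -0.51 ± 0.15 (adjusted p = 0.127), which did not pass although the groups did not overlap. From 3 to 10 days it was -0.35 ± 0.15 (adjusted p = 0.448), with an interval from -0.69 to 0.0019. The order of its means was therefore sham, 3 days, 10 days from high to low, of which only sham and 10 days differed by the test. A second, dimmer Mt2A probeset gave 7.60, 8.14 and 7.54 in sham rats, 7.37, 6.91 and 6.79 at 3 days, and 6.81, 6.40 and 6.77 at 10 days. It too had every sham rat above every ligated rat. In its place in the fit, it differed from sham by -0.74 ± 0.20 at 3 days (adjusted p = 0.0847) and by -1.10 ± 0.20 at 10 days (adjusted p = 0.0468). Both probesets read the same RNA, so the second is no independent sample, and their signals correlated at r = 0.95 over the 9 arrays.

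**Figure D2:**
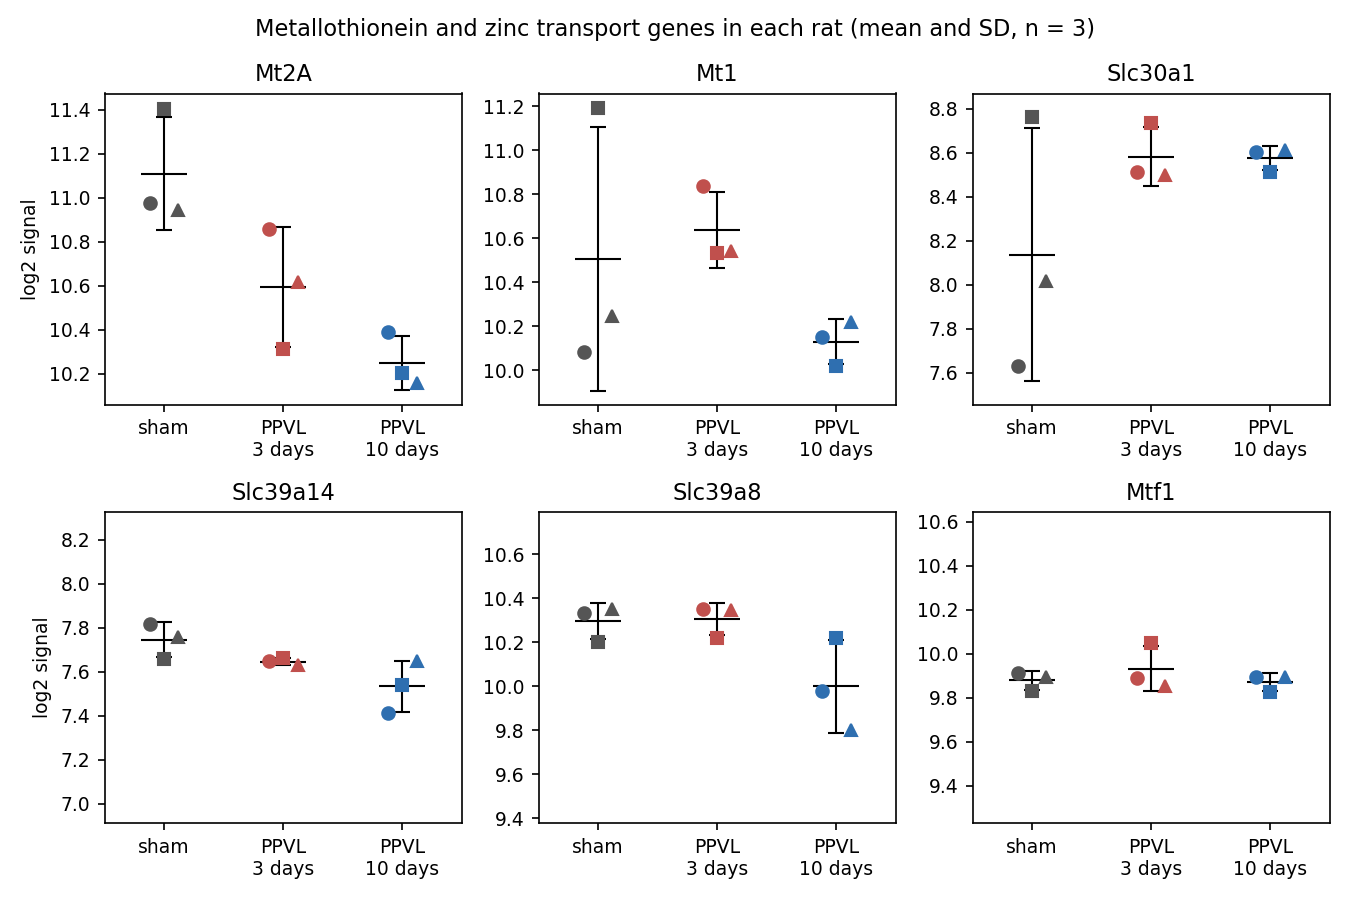
Log2 signal of the 6 genes in each rat. Circles, squares and triangles are rats 1, 2 and 3 of a group, bars are the mean and SD (n = 3), and all panels span the same number of log2 units. Mt2A descends from sham to 10 days, and sham rat 2 stands high for Mt2A, Mt1 and Slc30a1.

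Mt1, the other main metallothionein of rat tissues, passed no comparison. Its signals were 10.08, 11.19 and 10.25 in sham rats 1 to 3. They were 10.84, 10.53 and 10.54 at 3 days and 10.15, 10.02 and 10.22 at 10 days. Sham rat 2 was the highest of all 9 arrays and sham rat 1 lay among the 10-day rats, so the sham group (SD 0.60) covered the whole range of the 3-day rats and overlapped with the 10-day rats, of which rat 2 lay below every sham rat. All 3-day rats lay above all 10-day rats.

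The difference of Mt1 from sham was 0.13 ± 0.24 at 3 days (adjusted p = 0.863) and -0.38 ± 0.24 at 10 days (adjusted p = 0.483). Between the days it was -0.51 ± 0.24 (adjusted p = 0.470). The 10-day value rested on sham rat 2, without which it was -0.035 (adjusted p = 0.933). At 3 days it was 0.47 without sham rat 2 (adjusted p = 0.0992) and -0.084 without sham rat 1. With the hepatocyte marker score as a covariate the differences from sham were 0.39 and -0.16. The dimmer Mt1 probeset read 4.53, 5.68 and 5.37 in sham, 6.01, 5.61 and 5.45 at 3 days, and 4.19, 4.71 and 4.57 at 10 days. In its place in the fit, it differed from sham by 0.50 ± 0.27 at 3 days (adjusted p = 0.435) and by -0.70 ± 0.27 at 10 days (adjusted p = 0.239), larger than with the brighter probeset and likewise not past the test. It also had all 3-day rats above all 10-day rats, with a difference of -1.20 ± 0.27 (adjusted p = 0.210), and correlated with the brighter one at r = 0.80.

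Mt1 and Mt2A correlated at r = 0.62 (Spearman 0.43) over the 9 arrays, which share their sham group and its outlying rat. The gene whose pattern was most like Mt1 was Mt1f, a metallothionein by its symbol, with r = 0.97. Mt1f read 8.73, 9.95 and 9.07 in sham, 9.79, 9.55 and 9.35 at 3 days, and 8.84, 8.71 and 8.81 at 10 days. As with Mt1, its 3-day rats lay above its 10-day rats, and the difference between the days was -0.78 ± 0.25 (adjusted p = 0.325). Some metallothionein transcripts are similar in sequence, and whether these probesets take up one another's transcripts was not tested. The other metallothioneins tested, Mt3 (the brain form) and Mt4 (the form of stratified epithelia), differed from sham by -0.02 to 0.11 at either day, and neither passed. Of 5 metallothioneins listed 4 were tested, with 0 called at 3 days and Mt2A at 10 days. Their median differences were 0.0047 and -0.16, beside -0.014 and -0.00040 over all genes. Mt1f is not on this list and does not enter these medians. It differed from sham by 0.31 ± 0.25 at 3 days (adjusted p = 0.631) and by -0.46 ± 0.25 at 10 days (adjusted p = 0.407).

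**Figure D3:**
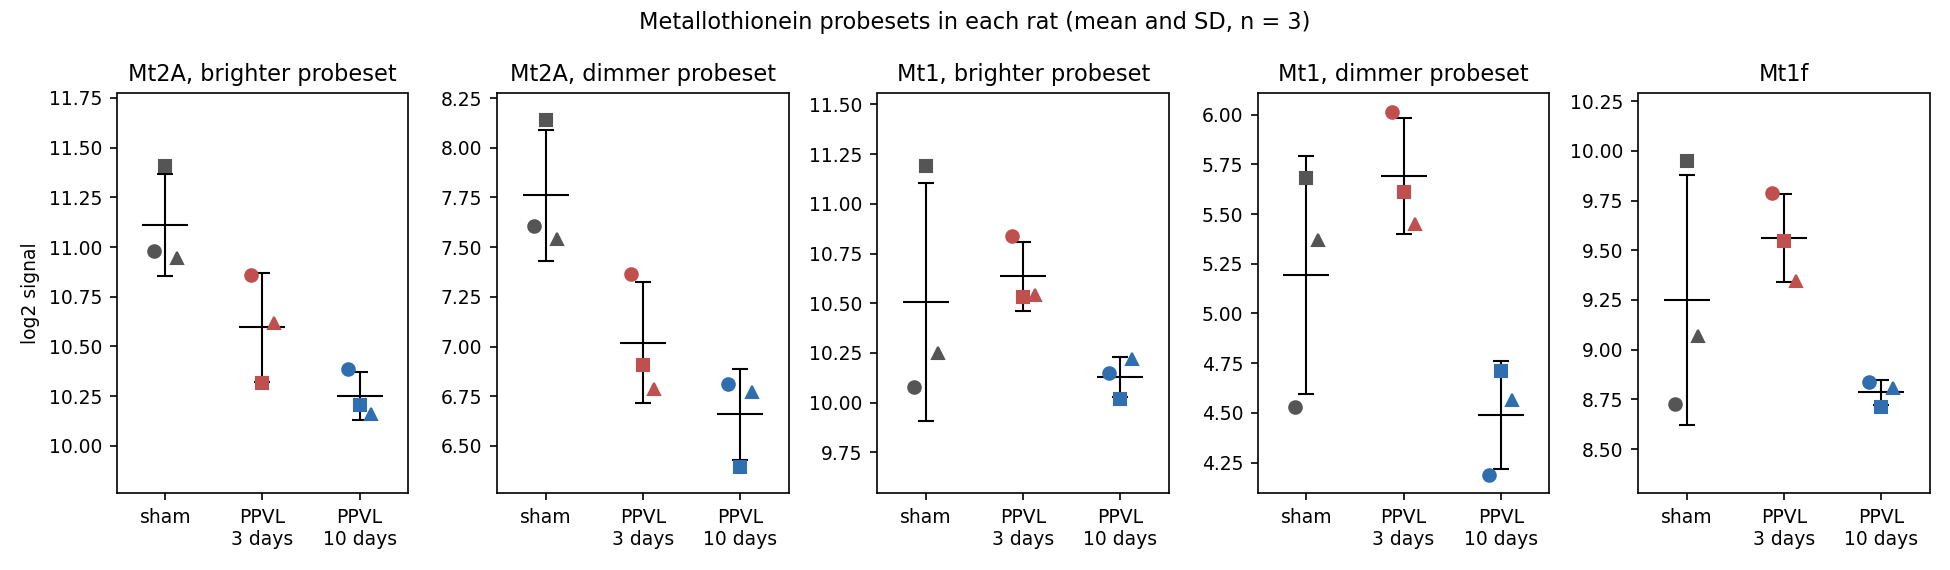
Log2 signal of both Mt2A probesets, both Mt1 probesets and Mt1f in each rat, with symbols for rats 1 to 3 as circles, squares and triangles, and the mean and SD (n = 3) as bars. For both Mt2A probesets every sham rat lies above every ligated rat, whereas for Mt1 and Mt1f the 3-day rats lie above the 10-day rats and the sham rats spread widely.

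Slc30a1, the zinc exporter gene that MTF-1 also controls, did not follow Mt2A. Its signals were 7.63, 8.76 and 8.02 in sham rats 1 to 3. They were 8.51, 8.74 and 8.50 at 3 days and 8.60, 8.51 and 8.61 at 10 days. The ligated rats lay close together (SD 0.13 and 0.06), while the sham rats (SD 0.57) included both the lowest and the highest signal of all. Its difference from sham was 0.45 ± 0.23 at 3 days (adjusted p = 0.395) and 0.44 ± 0.23 at 10 days (adjusted p = 0.377), neither past the test. Without sham rat 2, these were 0.76 (adjusted p = 0.0258) and 0.75 (adjusted p = 0.0952), and without sham rat 1 they were 0.19 and 0.19. With the hepatocyte marker score as a covariate they were 0.80 (adjusted p = 0.156) and 0.73 (adjusted p = 0.183). The days did not differ beyond their spread (-0.0060 ± 0.23, interval from -0.51 to 0.50).

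Of the importers, Slc39a8, which carries zinc and manganese into the cell, read 10.34, 10.20 and 10.35 in sham, 10.35, 10.22 and 10.35 at 3 days, and 9.98, 10.22 and 9.80 at 10 days. Sham and 3-day rats covered the same range, with 10-day rats 1 and 3 below it. Its difference from sham was 0.011 ± 0.10 at 3 days (adjusted p = 0.979) and -0.30 ± 0.10 at 10 days (adjusted p = 0.193). Between the days it was -0.31 ± 0.10 (adjusted p = 0.329), and the groups did not overlap, though the nearest rats read 10.22 in each.

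Slc39a14, whose product also carries iron that is not bound to transferrin, read 7.82, 7.66 and 7.76 in sham. At 3 days its signals were 7.65, 7.66 and 7.63, and at 10 days 7.41, 7.54 and 7.65. The 10-day rats lay below the sham rats, but barely so for the nearest of each group. Its difference from sham was -0.10 ± 0.07 at 3 days (adjusted p = 0.588) and -0.21 ± 0.07 at 10 days (adjusted p = 0.194). Neither importer passed the test in any of the 19 alternative fits of the 10-day comparison, where adjusted p was 0.0855 or more.

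Mtf1, the zinc-sensing regulator itself, had signals between 9.83 and 10.05 on all 9 arrays. They were 9.91, 9.83 and 9.89 in sham, 9.89, 10.05 and 9.85 at 3 days, and 9.89, 9.83 and 9.89 at 10 days. Its differences from sham were 0.053 ± 0.067 at 3 days (adjusted p = 0.780) and -0.0074 ± 0.067 at 10 days (adjusted p = 0.971). The intervals reached from -0.10 to 0.20 and from -0.16 to 0.14, so a change of the size of that of Mt2A lay outside them. MTF-1 is regulated largely through zinc binding and movement to the nucleus, which RNA arrays do not measure.

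In all, 0 of the 6 genes were called at 3 days, where 2.15% of all tested genes were called higher and 0.714% lower, and 1 of 6 had an unadjusted p under 0.05 with limma, as did 2171 of the 14014 genes. At 10 days 1 of 6 was called, as lower, against 0.492% of all genes called higher and 0.243% lower. There 3 of 6 (Mt2A, Slc39a8 and Slc39a14, all lower) had an unadjusted p under 0.05, as did 2271 of the 14014 genes. From 3 to 10 days 0 of 6 were called, where 0.0214% of all genes were called higher and 0.05% lower, and 1 of 6 (Slc39a8) had an unadjusted p under 0.05, as did 1578 of the 14014 genes. The groups did not overlap for 1 of 6 genes at 3 days (18.8% of all genes), 2 of 6 at 10 days (21%) and 2 of 6 between the days (14.6%). The members were chosen with these results known, so their counts are a description. The comparisons of each day with sham share the sham arrays, sham rat 2 among them.

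The wider families of zinc transporters held 1 gene past the test. Of 10 exporters of the Slc30 family, 8 were tested, and Slc30a4, which moves zinc into vesicles, rose at 3 days by 0.49 ± 0.10 (adjusted p = 0.0355). It read 8.23, 8.29 and 8.32 in sham, 8.70, 8.96 and 8.65 at 3 days, and 8.27, 8.43 and 8.58 at 10 days. All 3-day rats were above all other rats. At 10 days Slc30a4 differed from sham by 0.14 ± 0.10 (adjusted p = 0.528), and the difference between the days was -0.35 ± 0.10 (adjusted p = 0.282). The call at 3 days was lost in 6 of 9 fits without 1 array (dropping any sham array, the first or second array of the 3-day group or the second of the 10-day group, adjusted p up to 0.112). It was also lost with the replicate block (adjusted p = 0.0528), with only the 2 groups compared (0.0707) and with the hepatocyte covariate (0.0655).

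The median difference of the 8 exporters was 0.087 at 3 days and 0.13 at 10 days, beside -0.014 and -0.00040 over all genes tested. Of 14 importers of the Slc39 family 12 were tested, and none passed at either day (lowest adjusted p 0.321 and 0.193). Their median differences were 0.0070 and -0.0055. Slc39a8 and Slc39a14 had the largest negative differences of these 12 at 10 days.

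**Figure D4:**
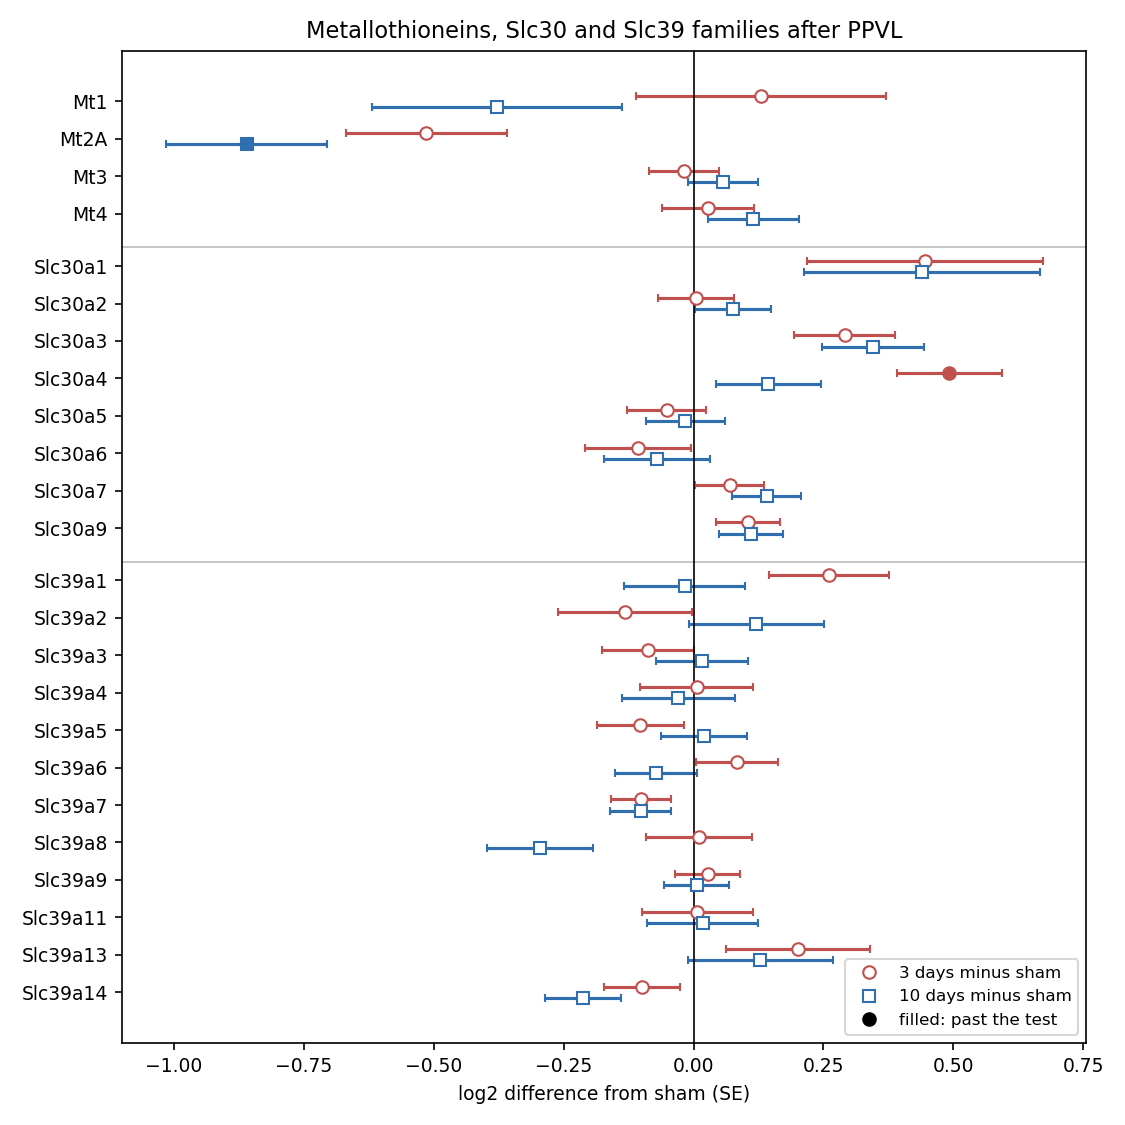
Log2 difference from sham (± SE) of each tested gene of the metallothionein, Slc30 exporter and Slc39 importer lists, 3 rats per group. Circles are 3 days and squares 10 days. Mt1f is not on the metallothionein list and is not drawn. Filled symbols passed the test at an adjusted p of 0.05, which are Mt2A at 10 days and Slc30a4 at 3 days.

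Genes of the pathways that act on metallothioneins were read from lists written with earlier results of these arrays known. Among 14 tested genes of copper handling, which include both metallothioneins, Slc31a2, a relative of the copper importer, rose at 3 days by 0.37 ± 0.07 (adjusted p = 0.0195), and Mt2A was the one called at 10 days. Slc31a2 read 7.92 to 8.08 in sham, 8.33 to 8.44 at 3 days and 8.28 to 8.37 at 10 days, so that the sham rats lay below all ligated rats, and its 10-day difference was 0.34 ± 0.07 (adjusted p = 0.0558). At 10 days some alternative fits called Slc31a2. They used the filter at the 50th percentile, quantile normalization, array weights, or an intensity trend and robust moderation (adjusted p from 0.0372 to 0.0461). Its 3-day call was lost when the first or second sham array or the second 3-day array was dropped (adjusted p up to 0.0709). That call was also lost with the replicate block (0.0522) and with only the 2 groups compared (0.0672).

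Among 14 tested genes of the glucocorticoid response, Errfi1, a feedback inhibitor of the epidermal growth factor receptor, fell at 3 days (-0.45 ± 0.08, adjusted p = 0.0213), from 11.89, 12.07 and 12.20 in sham to 11.62, 11.55 and 11.63. Hsd11b1, which regenerates active glucocorticoid within cells, rose at 10 days (0.63 ± 0.10, adjusted p = 0.0449). Its signals were 7.63, 7.83 and 7.78 in sham, 8.03, 8.24 and 8.26 at 3 days, and 8.48, 8.18 and 8.46 at 10 days, with sham below all ligated rats. At 3 days Hsd11b1 differed from sham by 0.43 (adjusted p = 0.0577). There it was called with the filter at the 50th percentile (0.0438) and with an intensity trend and robust moderation (0.0485). Dropping the second 10-day array also called it at 3 days (0.0430). The list's median difference was -0.018 at 3 days and -0.096 at 10 days. The 10-day call of Hsd11b1 was kept in 2 of 9 fits without 1 array. These dropped the first or the third 3-day array (adjusted p up to 0.150 in the others). This 10-day call was lost with no filter (adjusted p = 0.0576), the replicate block (0.0863), only the 2 groups compared (0.0542) and the hepatocyte covariate (0.0727). The call of Errfi1 was lost in 4 of 9 such fits, which dropped the second or the third sham array or the first or second 3-day array (adjusted p up to 0.0767), with only the 2 groups compared (0.0758) and with the hepatocyte covariate (0.0794).

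The oxidative stress response driven by NRF2, which can also raise metallothioneins, had 15 tested genes. Me1, the cytosolic malic enzyme that supplies NADPH, rose at 3 days by 0.99 ± 0.21 (adjusted p = 0.0361), from 4.49, 5.50 and 5.20 in sham to 6.15, 6.10 and 5.92, and read 5.34, 5.28 and 5.28 at 10 days. Its 3-day rats lay above all others, and the call was kept in 2 of 9 fits without 1 array, which dropped the first or second sham array (adjusted p up to 0.114 in the others). It was lost with the replicate block (adjusted p = 0.0617) and with only the 2 groups compared (0.127). Between the days Me1 differed by -0.75 (adjusted p = 0.261), which was called only without the first sham array (0.0400). The median of the list was 0.19 at 3 days and 0.12 at 10 days, with 0 genes called at 10 days.

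Among 12 genes of interleukin 6 and STAT3 signalling none passed. Bcl3, a partner of NF-kB proteins, differed by -0.58 ± 0.13 at 3 days (adjusted p = 0.0519) and Il1rn, the interleukin 1 receptor antagonist, by 0.41 ± 0.11 (adjusted p = 0.0828). Among 9 heat shock and metal stress genes none passed, and the co-chaperone Bag3 (between the days, adjusted p = 0.242) and the chaperonin Hspe1 (at 10 days, adjusted p = 0.119) had the smallest p. S100a8 and S100a9, the calgranulins that bind zinc outside the cell and mark neutrophils, differed by 1.19 ± 0.42 and 1.20 ± 0.49 at 3 days (adjusted p = 0.191 and 0.268). Sham rat 1 was the lowest array for both, at 6.34 and 7.58.

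Scores of cell type markers are the mean over a list of each gene's log2 signal minus its mean over the 9 arrays. They went different ways at 10 days. T cell and natural killer cell scores were lower than in sham, like Mt2A, while macrophage, hepatocyte and B cell scores were higher. For 10 T cell markers the score was 0.084 to 0.27 in sham, -0.18 to 0.051 at 3 days and -0.25 to -0.073 at 10 days. Of these markers 9 were lower and 1 higher than sham at 10 days, with 1 called lower. For 9 natural killer cell markers the score was 0.17 to 0.25 in sham and -0.27 to -0.19 at 10 days, with 3-day rats from -0.33 to 0.22. All 9 were lower than sham at 10 days, and 0 were called. Both lists, like Mt2A, were lower in all 10-day rats than in all sham rats, and any link to the fall of Mt2A was not tested.

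The score of 12 macrophage markers went the other way, from -0.28 to -0.21 in sham to 0.0045 to 0.15 at 10 days. Of these markers 10 were higher and 2 lower than sham at 10 days, and 0 were called. The score of 8 hepatocyte markers, a cell type rich in metallothioneins, ran from -0.35 to -0.084 in sham and from -0.022 to 0.16 at 10 days. With that score as a covariate the 10-day difference of Mt2A was -0.84 (adjusted p = 0.102), beside -0.86 without it. Hepatocyte scores of sham and 10-day rats did not overlap, so the covariate cannot be fully told apart from the group. A part of hepatocytes in the fall of Mt2A was therefore not tested by this fit. The T cell and natural killer cell scores were not used as covariates. B cell markers (8 tested) were at -0.34 to -0.27 in sham and 0.045 to 0.37 at 10 days. Neutrophil, platelet, sinusoidal endothelial and stellate cell scores of the 10-day rats were between -0.48 and 0.095, and all but those of stellate cells overlapped with sham. Mean signals of the lists were 9.59 to 9.78 in sham and 9.26 to 9.43 at 10 days for T cells, 10.16 to 10.24 and 9.73 to 9.81 for natural killer cells, 6.70 to 6.77 and 6.98 to 7.13 for macrophages, and 5.09 to 5.35 and 5.42 to 5.59 for hepatocytes. Such signals have no true zero on these arrays. Of the hepatocyte markers found, Apob lay below the filter.

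**Figure D5:**
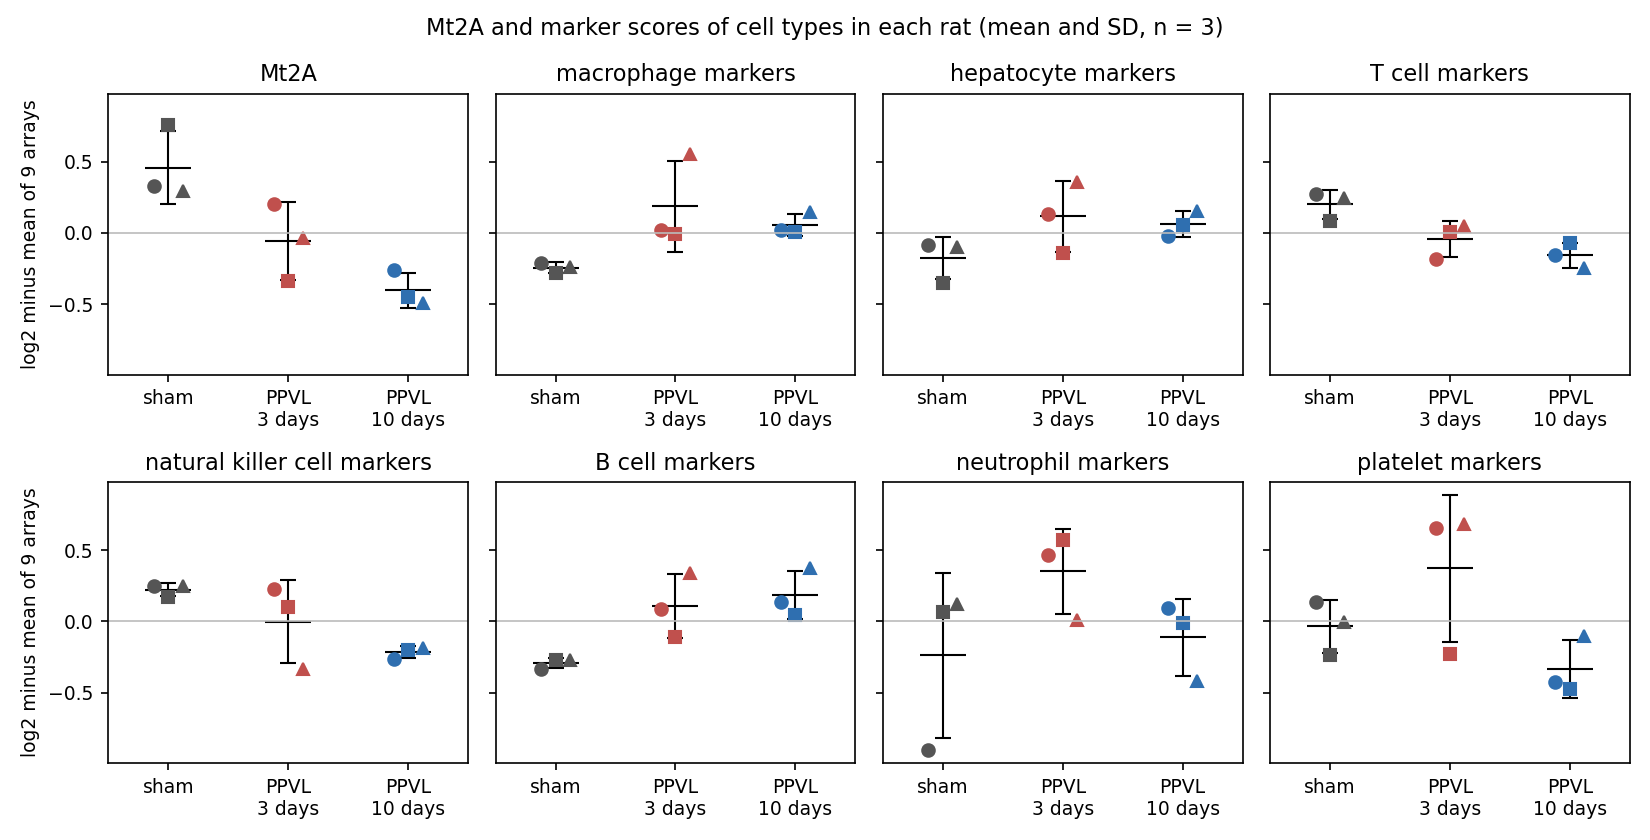
Mt2A and the marker scores of 7 cell types in each rat, as log2 signal minus the mean of the 9 arrays (circles, squares and triangles are rats 1, 2 and 3, and bars the mean and SD, n = 3). T cell and natural killer cell scores of the 10-day rats lie below those of the sham rats, as does Mt2A, and macrophage, hepatocyte and B cell scores lie above them.

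Other genes most like Mt2A in pattern were Eif2b4 (r = 0.97), a subunit of a translation initiation factor, the uridine kinase Uck1 (0.95), the deubiquitinase Otud5 (0.95), the splicing protein gene Snrnp70 (0.95) and Gse1 (0.94), by Pearson correlation over the 9 arrays. After Mt1f, the genes most like Mt1 were Kin (0.94), mrpl24 (0.93), Iqsec2 (0.91) and Mir19a (0.89). Those most like Slc30a1 were Iqgap3 (0.97) and Ctbp2 (0.93). Slc39a14 was matched most closely by Ranbp1 (0.98) and Med12l (0.97), Slc39a8 by Mrps18c (0.96) and Atxn2l (0.95), and Mtf1 by Ugcg (0.93) and Mtmr7 (0.92). With 14014 genes and 9 arrays some high correlations arise whatever the genes, and they describe these arrays.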

How the data were processed

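Hepatic macrophage RNA of 9 rats was measured on 1-colour arrays with 36685 probesets. The deposited values are on a log2 scale by their range, and the tools named are robust multi-array average (RMA) and Transcriptome Analysis Console, per the submitters' processing notes. Versions and genome build are not given in the sources used here. No further normalization was applied. Probesets were named from the platform annotation: 18511 carried 1 symbol, 575 several and 17599 none.

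The brightest probeset stood for each gene, and a gene was tested if its mean reached the probesets' 30th percentile. All 9 arrays entered moderated linear models across genes (limma 3.58.1, R 4.3.3), with 2-sided tests. The members and gene lists were chosen with earlier results of these data known. All 6 members were named, with up to 4 genes called per list or else those with the 2 smallest p, and the 5 (Mt2A, Mt1) or 2 genes most correlated with each member. A few marker genes were named to check the cell type. The fit was tested on simulated data. Alternatives were the filter, probeset choice, quantile normalization, variance moderation, array weights, a replicate block, 2-group fits, a hepatocyte covariate and leaving out each array. The number of arrays limits the precision. Promoters came from RefSeq (GRCr8).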

Additional observations from a re-analysis of the deposited data

Results flagged for a closer look

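Mt1 lay above the sham mean in all 3 rats at 3 days and below it in all 3 rats at 10 days. The difference between the days was -0.51 ± 0.24 (log2 ± SE), and limma's test of that difference did not pass (adjusted p = 0.470). The sham rats themselves ran from 10.08 to 11.19, and the sham mean rests on rat 2. Bag3, a co-chaperone, showed the same arrangement around sham rats that all had the identical value 8.53386. Such a tie gives no measure of the spread among sham rats, and its source was not tested. The difference of Bag3 between the days was -0.24 ± 0.063 and did not pass either (adjusted p = 0.242). Groups of 3 rats were too small for a test of single outlying arrays.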

How the results depend on the processing

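Mt2A was lower than sham in each of the 19 alternative fits at each day. At 10 days the count of members called was 0, against 1, with no filter, with the replicate block, with only the 2 groups compared and with the hepatocyte covariate, and 0 to 1 without 1 array (3 members at an unadjusted p under 0.05 in the first 3 of these fits, 4 in the fourth). At 3 days the count was 0 to 1 without 1 array, the 1 being Slc30a1 without sham rat 2. Between the days it was 0 in each alternative. The count of all genes called at 3 days was 401, 264 with the replicate block, 134 with only the 2 groups compared and 190 to 327 without 1 array. At 10 days it was 103, and 0 with no filter (2498 genes at an unadjusted p under 0.05), 173 with the filter at the 50th percentile, 170 with quantile normalization, 173 with an intensity trend and robust moderation, 197 with array weights, 0 with the replicate block (2163 unadjusted), 61 with only the 2 groups compared, 48 with the hepatocyte covariate and 0 to 140 without 1 array. Between the days it was 10, and 0 with the replicate block (1511 unadjusted), 3 with only the 2 groups compared, 21 with the hepatocyte covariate and 0 to 18 without 1 array; of the 10, 3 were higher, against 12.5% of the 8 called with quantile normalization. The cause of these moves was not tested. Over all tested genes, deviations of same-numbered rats of different groups from their group means correlated at -0.095 to 0.084. Those of differently numbered rats correlated at -0.13 to 0.17. The correlations thus gave no sign that the numbers pair the rats, but they cannot show whether single genes share a batch. Calls of single genes that the block ended are given with those genes. Differences near 0 that passed no test changed sign. Slc39a8 at 3 days was -0.0046 with quantile normalization, -0.050 with the hepatocyte covariate and -0.036 to 0.054 without 1 array. Mt1 at 3 days was -0.030 with array weights and -0.084 to 0.47 without 1 array. Mtf1 was -0.0052 to 0.092 at 3 days without 1 array, and at 10 days 0.0040 with quantile normalization, 0.040 with the hepatocyte covariate and -0.031 to 0.015 without 1 array. Slc30a1 between the days was 0.047 with quantile normalization and -0.048 to 0.071 without 1 array, and Slc31a2 0.0047 with quantile normalization and -0.052 to 0.0049 without 1 array. Me1 at 10 days was -0.048 to 0.46 without 1 array. The use of the other probeset for Mt1 and Mt2A was chosen after seeing the data. It kept the call of Mt2A at 10 days.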
